A study of Drosophila melanogaster with 2 samples.

Results

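The vacuolar ATPase (V-ATPase) genes of Drosophila melanogaster were taken as the protein-coding genes whose symbol starts with Vha in the Ensembl annotation, which gave 33 of 13945 genes. They were examined in chromatin immunoprecipitation followed by sequencing (ChIP-seq) of HmgZ, a small chromatin protein that binds DNA through a high mobility group box. The chromatin came from whole embryos, males and females pooled, aged 4 to 24 h, of a transgenic line that stably expresses HmgZ with green fluorescent protein (GFP) at its C-terminus, and was sheared by sonication to 200 to 800 bp. The design had a single group of 2 biological replicates (1 and 3 by the labels' numbering), with nothing to compare it to, so no difference could be tested across samples and all counts below are descriptions. Free text in the labels calls both samples input controls, while the antibody and the assay name are those of an HmgZ ChIP, as which both are taken. The labels also hold an impossible age in hours, and the stage of the sample source is used instead. A ChIP of embryos without the tag was not analysed here, the depth of each library is unknown because the lists hold no read counts, and both replicates were compared with the same control. Whole embryos mix cell types, so binding in few cells and weak binding in many cannot be told apart.

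The V-ATPase is a rotary proton pump that acidifies lysosomes, endosomes and secretory vesicles, and it also sits in the plasma membrane of cells that move acid or salt. Its V1 sector, in the cytosol, splits ATP, and the rotation this drives turns a ring of proteolipids in the membrane-bound V0 sector past subunit a, which carries protons across. In flies every cell needs the pump, and several subunits are encoded by a ubiquitous gene together with paralogs known mainly from a single tissue, often the testis. The sector, subunit and breadth of expression given to each gene here are background knowledge and were not measured in these embryos. By that assignment, the 33 genes encode 14 subunits: 5 genes are the only gene of their subunit, 9 are the ubiquitous paralog of a subunit with several genes, 1 (Vha68-1) is a second broadly expressed paralog, and 18 are other paralogs, called restricted below.

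HmgZ peaks lay at nearly all the widely used V-ATPase genes and at few of their restricted relatives. A gene was counted as bound where the summit of a peak that passed the irreproducible discovery rate (IDR) threshold lay within 250 bp of 1 of its annotated transcription start sites (TSSs). Of the 33 genes, 16 were bound (48.5%), against 4574 of all 13945 protein-coding genes (32.8%). All 5 genes that are alone for their subunit were bound (Vha55, Vha44, Vha26, Vha13 and VhaSFD), as were 7 of the 9 ubiquitous paralogs (Vha68-2, Vha36-1, Vha100-2, Vha16-1, VhaPPA1-1, VhaM9.7-b and VhaAC45). Together these are 12 of 14 (85.7%). Of the 18 restricted paralogs 3 were bound (16.7%), namely Vha100-1, VhaM9.7-a and VhaM9.7-c. Vha68-1 was bound too. The nearest thresholded summit lay at a median of 288 bp from a TSS over the 33 genes and 2541 bp over all protein-coding genes.

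**Figure D1:**
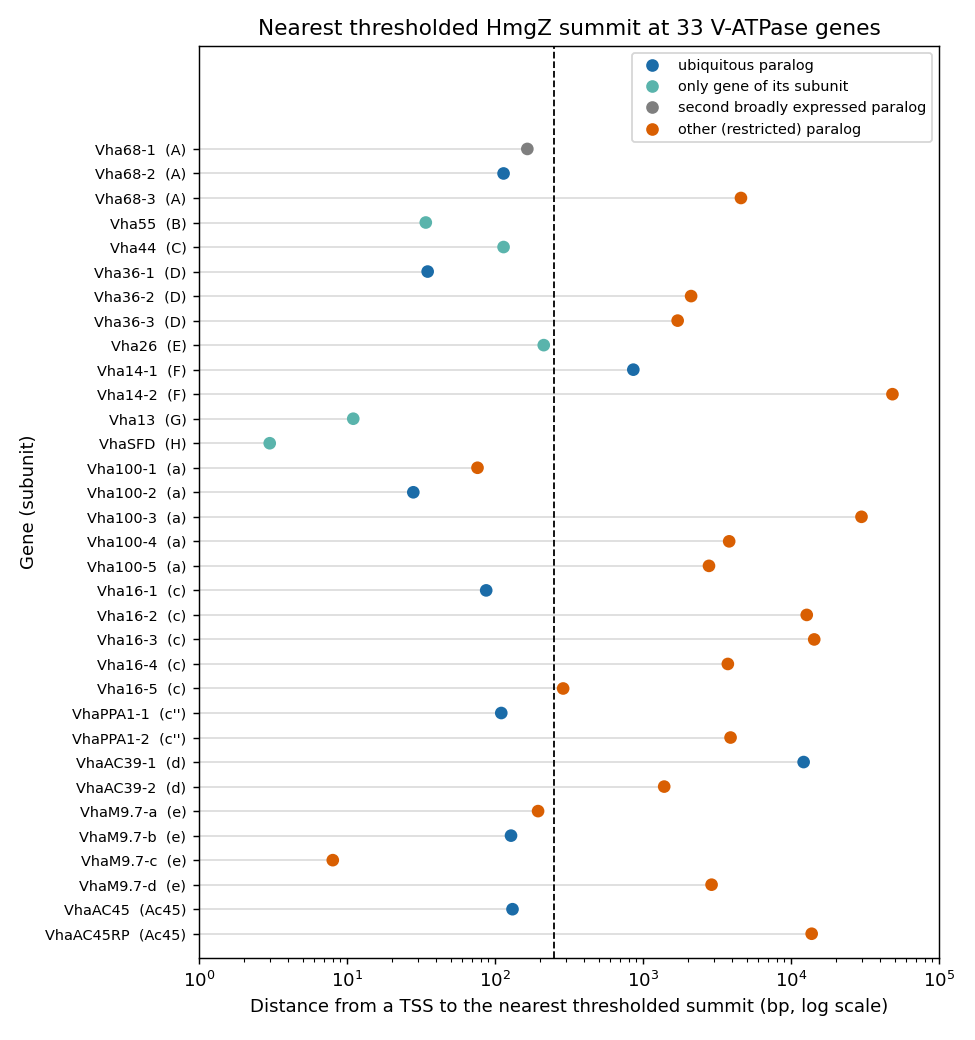
Distance in bp, on a log axis, from a TSS of each of the 33 V-ATPase genes to the nearest summit of the thresholded set, with the subunit in brackets and the point colour giving the class. The dashed line marks 250 bp: 12 of the 14 ubiquitous or only genes and 3 of the 18 restricted paralogs lie to its left.

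The promoters of 6 genes serve as examples of sequence at bound and unbound genes. They are printed from the RefSeq copy of the dm6 assembly, each read 5′ to 3′ along its gene's strand, in lower case, with copies of 2 promoter motifs in capitals. These are TATCGATA, the DNA replication-related element (DRE), and GGTCACACT, the core of the motif bound by M1BP, or its reverse complement. Every bound promoter printed holds the DRE or the M1BP core, which is not typical of the family. Of the 16 bound V-ATPase genes, 2 have the DRE and 4 the M1BP core. Vha55, at chr3R:12627829-12628029 on the minus strand, has the strongest V-ATPase promoter peak, and its window covers the 200 bases before the TSS. VhaSFD, at chr2L:16727806-16727926 on the minus strand, has its summit at the TSS itself. The windows of Vha26 (chr3R:5591613-5591783, plus strand) and Vha100-1 (chr3R:29131043-29131213, plus strand), a single-gene subunit and a restricted paralog, both carry the M1BP core on the TSS. Vha68-2 (chr2L:12974122-12974322) and Vha68-3 (chr2L:12978636-12978786), neighbours on the plus strand, are a bound and an unbound paralog of the same subunit.
Vha55: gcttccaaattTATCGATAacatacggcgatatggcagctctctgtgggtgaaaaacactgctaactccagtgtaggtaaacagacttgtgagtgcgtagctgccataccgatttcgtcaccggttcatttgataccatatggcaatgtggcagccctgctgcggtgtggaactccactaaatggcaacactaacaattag
VhaSFD: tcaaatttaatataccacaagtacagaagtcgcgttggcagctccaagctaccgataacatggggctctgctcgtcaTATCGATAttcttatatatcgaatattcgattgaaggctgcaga
Vha26: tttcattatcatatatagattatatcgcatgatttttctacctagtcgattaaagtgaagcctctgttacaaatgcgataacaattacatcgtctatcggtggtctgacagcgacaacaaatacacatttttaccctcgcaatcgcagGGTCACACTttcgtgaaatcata
Vha100-1: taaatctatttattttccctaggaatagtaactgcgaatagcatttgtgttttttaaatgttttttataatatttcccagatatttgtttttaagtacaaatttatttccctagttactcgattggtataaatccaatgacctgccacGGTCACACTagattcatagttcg
Vha68-2: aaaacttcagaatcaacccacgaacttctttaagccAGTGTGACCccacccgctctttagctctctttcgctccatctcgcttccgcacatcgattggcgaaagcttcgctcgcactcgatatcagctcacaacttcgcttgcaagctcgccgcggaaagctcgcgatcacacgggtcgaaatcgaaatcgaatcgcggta
Vha68-3: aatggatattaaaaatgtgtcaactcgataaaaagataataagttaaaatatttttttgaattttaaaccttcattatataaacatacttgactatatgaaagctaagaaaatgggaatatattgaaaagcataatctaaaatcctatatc

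In those windows, the DRE of Vha55 was centred at -185 bp (negative values are upstream of the TSS) and 151 bp from the summit, and that of VhaSFD at -19 bp and 22 bp from the summit. The M1BP core was centred 2 bp after the TSS in both Vha26 and Vha100-1, which placed it 215 bp from the summit in the first and 78 bp in the second. In Vha68-2 it lay at -160 bp, 46 bp from the summit. The printed Vha68-2 window has a G+C content of 52.7% and the Vha68-3 window 21.2%, with neither motif in the latter.

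Among the genes of the V1 sector, 8 of 13 were bound. The signal of each peak was divided by the median signal of that replicate's own list of 30000 regions, since the scale of the deposited signal differs between lists, and is given for both replicates and, where useful, as their mean ± SD (n = 2). The rank is that of the peak by signal in the thresholded set of 6844. Vha55 encodes subunit B, the partner of the catalytic subunit in the ATP-splitting ring, and had the strongest promoter peak of the family, at rank 626. Its signal was 5.47 in replicate 1 and 7.86 in replicate 3 (6.66 ± 1.69), with the summit 34 bp before the TSS. Subunit A carries the catalytic site. Its ubiquitous gene Vha68-2 (chr2L:12974322-12978607) reached 4.15 and 4.96 at rank 1622 (4.55 ± 0.57), and Vha68-1 reached 2.08 and 5.19 at rank 2907 (3.63 ± 2.20). The replicates lay close together at the former and apart at the latter. Vha68-3 was unbound and had no pooled region within 250 bp, and a region of 0.75 in replicate 3 alone.

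Subunits D and F form the central stalk that turns inside the ring. For D, Vha36-1 was bound at rank 835, with 4.72 and 7.09 (5.90 ± 1.67) and the summit 35 bp before the TSS. Its paralogs Vha36-2 and Vha36-3 had their nearest thresholded summits at 2108 and 1710 bp, nearest to other genes, and no region in either replicate's list within 250 bp. For F, neither gene was bound. Vha14-1, the ubiquitous paralog, had weaker regions in both replicates, at 1.46 and 2.38 times the median, and its pooled region ranked 7212, not far beyond the 6844 that passed. Vha14-2 had none, and its nearest thresholded summit was 48316 bp away.

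Subunits E and G make the peripheral stalks that hold the ring still, C joins them to the membrane sector, and H regulates the coupling of the sectors. Each has a single gene in the fly, and all were bound. Vha26 (E) reached 5.001 and 6.62 at rank 860 (5.81 ± 1.15), and Vha44 (C) 4.90 and 3.51 at rank 1792 (4.20 ± 0.98). Vha44 was the only bound V-ATPase gene of 15 measured in both replicates that was lower in replicate 3. Vha13 (G) had nearly equal values of 4.29 and 4.36 (4.32 ± 0.05) at rank 3247, and VhaSFD (H) had 2.93 and 3.77 at rank 2965 (3.35 ± 0.59). Of the single-gene subunits, VhaSFD had its summit 3 bp after the TSS and Vha13 had it 11 bp before.

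**Figure D2:**
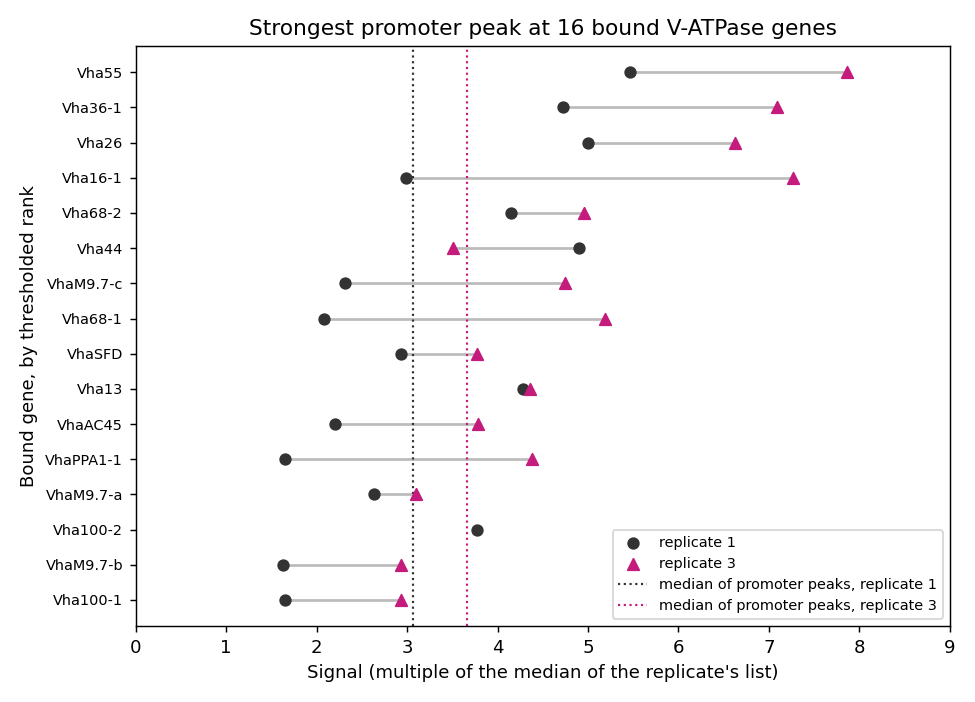
Signal of the strongest promoter peak at the 16 bound V-ATPase genes in replicate 1 (circles) and replicate 3 (triangles), as a multiple of the median of the replicate's list, ordered by rank in the thresholded set. Dotted lines are the medians over promoter peaks, 3.06 in replicate 1 and 3.66 in replicate 3. Vha100-2 has no matching region in replicate 3, and 14 of the other 15 genes are higher in replicate 3.

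In the V0 sector 7 of 18 genes were bound. Subunit c builds most of the proteolipid ring, and its ubiquitous gene Vha16-1 had the strongest V0 peak, at rank 1218. Its values were 2.99 and 7.26 (5.13 ± 3.02), so the replicates differed widely. Its paralogs Vha16-2, Vha16-3, Vha16-4 and Vha16-5 were unbound and had no region in the pooled list or in either replicate's list within 250 bp. Vha16-5 fell just outside the window, with a summit at 288 bp that lay 14 bp from a TSS of CG12299, its neighbour. The bound gene nearest the limit on the other side was Vha26, at 213 bp.

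Subunit c'' is the second proteolipid of the ring. VhaPPA1-1 was bound at rank 3984 with 1.66 and 4.39 (3.02 ± 1.93). Replicate 1 had a stronger region, of 2.28, within 250 bp of the TSS but more than 100 bp from that summit. VhaPPA1-2 had a pooled region of rank 26463 and none in either replicate's list. Subunit d caps the ring and couples it to the stalk, and neither of its genes was bound. VhaAC39-1, the ubiquitous gene, had regions of 1.26 and 1.98 in the replicates and a pooled rank of 9252, and VhaAC39-2 had 1.36 in replicate 3, none in replicate 1 and a pooled rank of 16276.

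Subunit a forms the proton channels with the ring and directs the pump to particular membranes. Vha100-2, the ubiquitous paralog, was bound in the thresholded set at rank 4909, and the replicates disagreed there. Replicate 1 had a region of 3.77 at 16 bp from the TSS. Replicate 3 had none within 250 bp, and its nearest region at this start, of 4.60, had its summit 492 bp from it. A further thresholded peak, of rank 4998, lay 243 bp from the TSS, with a region of 2.11 in replicate 1. A much stronger peak, at rank 413, lay in an intron of Vha100-2 at chr3R:18397092-18397315, with 7.20 in replicate 1 and 8.23 in replicate 3 (7.71 ± 0.73). It was 294 bp before an internal TSS of Vha100-2, just outside the window, and 227 bp from a TSS of Vti1b, a SNARE gene that overlaps Vha100-2. A peak of rank 4766 lay in an intron 3312 bp from the nearest Vha100-2 TSS, with 1.56 and 3.72.

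Of the other genes for subunit a, Vha100-1, which is known from neurons in the fly, was bound with the lowest rank of the family, 5630. Its values were 1.65 and 2.93 (2.29 ± 0.90). Vha100-3 and Vha100-4 had no region within 250 bp in any list, and Vha100-5 had 0.79 and 0.58, below the medians of both lists, with a pooled rank of 21371. Their nearest thresholded summits were at 29852, 3811 and 2784 bp.

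Subunit e is a small membrane protein of V0, and 3 of its 4 genes were bound. The strongest peak was not at the ubiquitous paralog. VhaM9.7-c reached 2.31 and 4.75 at rank 2752 (3.53 ± 1.72), with the summit 8 bp before the TSS, and VhaM9.7-a reached 2.63 and 3.10 at rank 4093 (2.87 ± 0.33). VhaM9.7-b, the ubiquitous gene, reached 1.63 and 2.93 at rank 5155 (2.28 ± 0.92). VhaM9.7-d was unbound, with its nearest thresholded summit at 2898 bp and no region within 250 bp in any list. The tissue range of VhaM9.7-a and VhaM9.7-c is the least certain of the assignments, and without them, a change made after the data were seen, 1 restricted paralog was bound. For Ac45, an accessory membrane protein of the pump, VhaAC45 was bound at rank 3690 with 2.20 and 3.79 (2.99 ± 1.12). Its paralog VhaAC45RP was not, with a region of 1.42 in replicate 1, none in replicate 3 and a pooled rank of 16787.

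Set side by side within subunits, the ubiquitous gene alone was bound in 4 of the 9 subunits with several genes (D, c, c'' and Ac45). In 3 (A, a and e) it was bound together with other paralogs, and in F and d no gene was bound. By this definition no subunit had a bound paralog while its ubiquitous gene was unbound. That did not hold in either replicate alone. Replicate 1 lost VhaM9.7-b but kept VhaM9.7-a and VhaM9.7-c, and replicate 3 lost Vha100-2 but kept Vha100-1. Within 100 bp, in the strongest 3422 peaks and in peaks matched in both replicates, VhaM9.7-c was bound without VhaM9.7-b. With gene bodies, VhaAC39-2 was bound without VhaAC39-1. The full pooled list of 30000 regions, most of which did not pass the IDR threshold, extends the view to weaker regions. The thresholded peaks are its strongest 6844 regions, so bound genes rank within these by construction. Only the ranks of unbound genes add to the count above. All 14 ubiquitous or only genes had a pooled region within 250 bp, at ranks from 626 to 9252, with 7212 for Vha14-1 and 9252 for VhaAC39-1 as the sole ranks beyond the threshold. Of the restricted paralogs 7 of 18 had a region. The 4 that were unbound, VhaAC39-2, VhaAC45RP, Vha100-5 and VhaPPA1-2, ranked between 16276 and 26463. Over all protein-coding genes, 54.6% had a pooled region in the window, against 22 of the 33 V-ATPase genes.

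**Figure D3:**
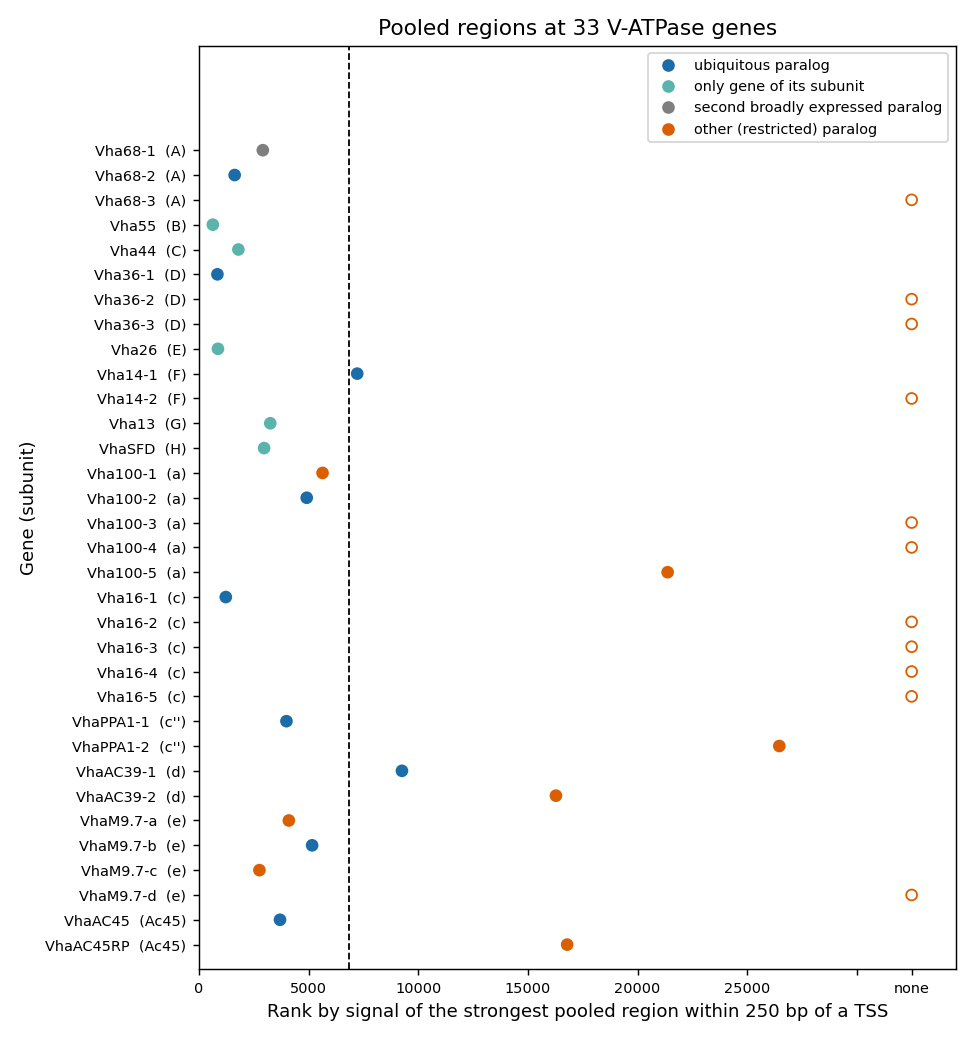
Rank by signal of the strongest pooled region within 250 bp of a TSS for each of the 33 V-ATPase genes, with the subunit in brackets and colours giving the class. The dashed line marks rank 6844, where the thresholded set ends, and open circles at the right mark genes with no region. Vha14-1 and VhaAC39-1 lie at 7212 and 9252, to the right of the line and to the left of every unbound restricted paralog.

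Closely linked paralogs showed the split too. The gap between the genes is 178 bp for Vha68-2 and Vha68-3, 517 bp for Vha100-2 and Vha100-4, and 2052 bp for VhaPPA1-1 and VhaPPA1-2. Each pair is on the same strand. Their nearest TSSs are farther apart, at 3384, 7123 and 3784 bp. For Vha68-2 and Vha100-2 these distances start at an internal TSS. The peaks by which these genes were called bound lay at their first TSSs, farther still from the paralog. In all 3 pairs the ubiquitous gene, which comes first, was bound and the other was not. Vha16-3 and Vha16-2, restricted paralogs with a gap of 985 bp and nearest TSSs 1572 bp apart, were both unbound. Every 32-base stretch within 250 bp of the TSSs of all 33 genes occurred once in the genome, while the read length is unknown, and the part of mapping in the split was not tested. The median G+C content from 250 bp before to 50 bp after the TSS was 39.2% for the 14 ubiquitous or only genes, 34.4% for the 18 restricted paralogs and 37.9% for all protein-coding genes, and its part in the split was not tested.

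The peaks at bound V-ATPase genes lay across most of the range of promoter peaks in strength. Their mean signal over the replicates ranged from 2.28 to 6.66 times the list median, with a median of 3.63 over the 15 genes measured in both, against 3.56 for the strongest promoter peaks of the 4332 bound genes measured in both and 3.31 over all 3765 promoter peaks. By percentile among those promoter peaks they ranged from 11.4 for VhaM9.7-b to 90.5 for Vha55, with a median of 53.7, and 8 of 15 were above the middle of the distribution. Among the strongest peaks of bound genes, a reference added after the data were seen, their median percentile was 47.8. In replicate 3 the value was higher for 14 of the 15 genes, as it was for 72.7% of those bound genes and 68.3% of all promoter peaks. The family's ranks ran from 626 to 5630.

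The summits sat before the gene starts. Measured from each bound gene's strongest promoter peak to the nearest of the gene's own TSSs, the summit was upstream at 15 of the 16 V-ATPase genes (93.8%) and at 82.0% of all 4574 bound genes. The median position was -98.5 bp at V-ATPase genes, from -213 bp at Vha26 to 3 bp at VhaSFD, and -64 bp over all bound genes. At Vha44, Vha26 and VhaM9.7-a the TSS of another gene was nearer to the summit. Measured to the nearest protein-coding TSS of any gene, the median was -58 bp for the 16 V-ATPase peaks and -49 bp for all 3878 summits within 250 bp of such a TSS, with 15 of 16 and 76.6% upstream. Vha13 and VhaM9.7-c had it 11 and 8 bp before the TSS. Vha68-2 and Vha44, both at 114 bp, and VhaM9.7-b and VhaAC45, at 128 and 131 bp, had it farther away.

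**Figure D4:**
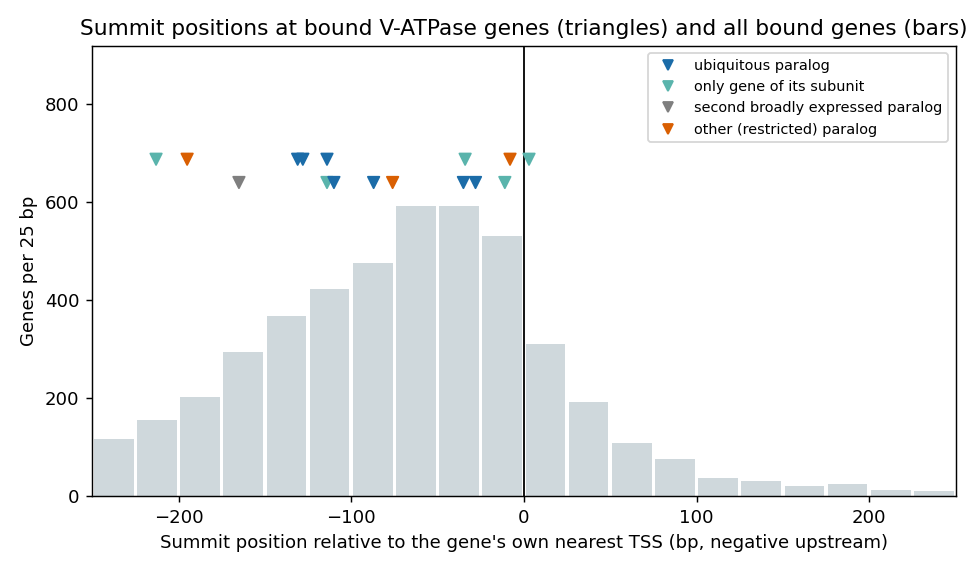
Position of the summit of the strongest promoter peak relative to the nearest of the gene's own TSSs, in bp with negative values upstream, at the 16 bound V-ATPase genes (triangles, coloured by class, at arbitrary height) and, as the number of genes per 25 bp, at all 4574 bound protein-coding genes (bars). All triangles but that of VhaSFD lie to the left of the TSS.

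Several of these peaks lay between a pair of diverging genes and cannot be given to the V-ATPase gene alone. At 7 of the 16 bound genes (43.8%) a TSS of another protein-coding gene was within 250 bp of the same summit, close to the 43.7% of all bound genes. All 7 neighbours were on the opposite strand, a condition not set for the 43.7%. Vha68-1 shares its peak with mTor, the kinase of the TORC1 complex, which the V-ATPase helps to activate on lysosomes. Their TSSs are 373 bp apart, and the summit lay 165 bp from that of Vha68-1 and 208 bp from that of mTor. Vha55 is paired with Snx3, a sorting nexin, Vha36-1 with CG8187, and Vha100-1 with dgt6, a subunit of the augmin complex of the spindle. In these 4 pairs the V-ATPase gene is the nearer. The neighbour was nearer at Vha44 (Hmgs, an enzyme of isoprenoid synthesis, at 9 bp against 114 bp), Vha26 (noi, a splicing factor, at 91 bp against 213 bp) and VhaM9.7-a (CG11586, at 40 bp against 195 bp). With each summit given to the nearest TSS alone, 13 V-ATPase genes were bound and 26.4% of all genes.

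A motif of known V-ATPase regulation was then looked for in the promoters. Mitf, a basic helix-loop-helix factor related to mammalian TFEB, is known in the fly to bind M-boxes at V-ATPase genes and to raise their expression. The letters TCACGTGA were searched on both strands from 250 bp before to 50 bp after each TSS, and occurred at 2 of the 33 genes (Vha68-2 and Vha44) and at 0.201% of all promoters. The other M-box, TCACATGA, was added after the promoters had been searched. It occurred at 5 V-ATPase genes (Vha55, Vha14-1, VhaPPA1-1, VhaM9.7-b and VhaAC45) and at 0.746% of all promoters. The 7 genes with either were all among the 14 ubiquitous or only genes, and 0 of the 18 restricted paralogs had one. Over all promoters 0.939% held either, and 1.27% of bound genes did. In a wider window, from 500 bp before to 100 bp after, Vha16-1 joined them through a copy at 95 bp, which made 8 genes against 1.91% of all promoters.

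The M-boxes of 4 of these genes are shown with 11 bases to each side, in capitals, as they read along the gene's strand in the RefSeq copy of dm6. That of Vha68-2 (chr2L:12975292-12975321, plus strand) is centred at -95 bp from an internal TSS. Those of Vha55 (chr3R:12627766-12627795, minus strand), VhaPPA1-1 (chr3R:14904009-14904038, minus strand) and VhaM9.7-b (chr3L:21539873-21539902, plus strand) lie in the annotated 5′ UTR, 48, 37 and 26 bp after a TSS, and read as TCATGTGA, the reverse complement of TCACATGA.
Vha68-2: tcaaagctctgTCACGTGAaacgaaagctc
Vha55: cgcgtgacgggTCATGTGAcggcacgtgac
VhaPPA1-1: gaaaatgtacgTCATGTGAttgtggattct
VhaM9.7-b: ggacatgtccgTCATGTGAtattcgttgct

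HmgZ summits did not lie on these letters. The nearest approach was 69 bp, at Vha44, followed by 82 bp at Vha55, 124 bp at VhaAC45, 147 bp at VhaPPA1-1, 154 bp at VhaM9.7-b and 182 bp at Vha16-1. The called peaks at Vha44, Vha55, VhaAC45, VhaPPA1-1 and VhaM9.7-b nevertheless span the M-box, and that at Vha16-1 does not. With chromatin sheared to 200 to 800 bp, such distances cannot show that HmgZ and the M-box are apart. At Vha68-2 the summit was at the first TSS, 1099 bp from the M-box, which lay outside the called peak. Vha14-1 has an M-box 4 bp after its TSS and was unbound. The ubiquitous or only genes with no M-box in either window, Vha36-1, Vha26, Vha13, VhaSFD, Vha100-2 and VhaAC39-1, include Vha36-1 and Vha26, whose promoter peaks were among the 3 strongest of the family.

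**Figure D5:**
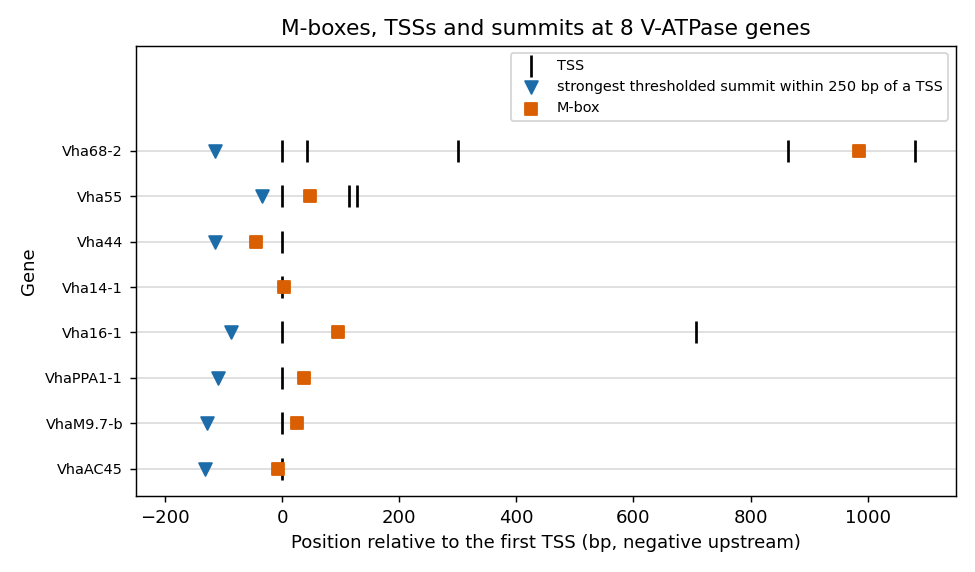
Positions in bp relative to the first TSS (negative upstream) of M-boxes (squares), strongest thresholded summits within 250 bp of a TSS (triangles) and annotated TSSs (vertical ticks) at the 8 V-ATPase genes with an M-box from 500 bp before to 100 bp after a TSS. Vha14-1 has no summit within 250 bp, and at Vha68-2 the M-box is 1099 bp from the summit, beside an internal TSS.

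Motifs of other promoter factors were counted in the same windows. The DRE occurred at 2 V-ATPase promoters (Vha55 and VhaSFD) and at 10.2% of all promoters and 19.4% of bound ones. The M1BP core occurred at 4 (Vha68-2, Vha26, Vha100-1 and Vha16-1), all of them bound, and at 6.78% of all promoters and 13.8% of bound ones. The short letters CGATA, part of the BEAF-32 motif, which can overlap the DRE, occurred at 19 genes and at 53.1% of all promoters. They were in 11 of the 14 ubiquitous or only genes and in 7 of the 18 restricted paralogs. Among bound genes, they were in 13 of the 16 V-ATPase genes and in 69.3% of all. The core promoter elements known as Ohler motif 6 and Ohler motif 7 occurred at 1 and 2 genes, against 2.52% and 11.5%. TATAAA occurred at 18 against 51.3%, GAGAG at 11 against 36.4%, and the E-box CACGTG, which is contained in TCACGTGA, at 5 against 5.34%.

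Genes that work with the pump are not all covered by the Vha names. ATP6AP2, an accessory protein of the V-ATPase whose older symbol in RefSeq is VhaM8.9, was bound at rank 1343 with 3.75 and 5.70 (4.73 ± 1.38). Rbcn-3A and Rbcn-3B form the rabconnectin complex, which helps V1 and V0 to assemble. Rbcn-3B was bound at rank 6059 with 2.01 and 2.74, and Rbcn-3A had no pooled region within 250 bp. CG7071, at rank 501 with 4.71 and 10.2 (7.45 ± 3.88), and CG5969, which was unbound, completed a list of 5 genes for assembly and regulation, of which 3 were bound. M-boxes occurred in the promoters of 3 of the 5, ATP6AP2, CG5969 and CG7071. They occurred in none of the 11 genes for lysosomal TORC1 and Mitf or the 22 genes for lysosomal proteins. Nor did they occur in the 9 for the HOPS tethering complex and endosomes or the 15 ATPsyn genes of the mitochondrial ATP synthase.

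Peaks were found at 6 of the 11 genes of lysosomal TORC1 and Mitf. Lamtor3, part of the Ragulator scaffold that holds TORC1 on the lysosome, had 11.03 and 17.2 at rank 117 (14.1 ± 4.35). By mean percentile over the replicates it was followed by Lamtor4 at 3.43 and 3.77 and by the GTPase RagC-D at 3.54 and 2.92. By mean signal mTor, through the peak it shares with Vha68-1, came second at 3.63. Mitf itself was unbound, with a pooled rank of 10289. Of the lysosomal proteins 9 of 22 were bound, with the highest mean percentiles at the cathepsin CtsL1 (6.66 and 6.61), the transporter spin (3.73 and 4.07) and CtsF (5.74 and 3.06). Of the HOPS and endosomal genes 6 of 9 were bound. Vps33B reached 9.22 and 15.2 at rank 162 (12.2 ± 4.24), and the endosomal GTPases Rab5 and Rab7 reached 6.21 and 6.81, and 4.82 and 5.02. For the mitochondrial ATP synthase, the other rotary ATPase of the cell, only genes whose symbol starts with ATPsyn were taken. Of these 15 genes 6 were bound, the highest by mean percentile being ATPsynF (7.10 and 7.72), ATPsynC (6.39 and 6.28) and ATPsynO (3.61 and 4.99). The unbound ATPsynCF6L, ATPsynGL, ATPsynbetaL and ATPsynepsilonL had no pooled region within 250 bp. The other unbound genes of this list had one, at ranks from 7131 to 23658. The shares of these lists compare with 32.8% of all protein-coding genes, and no difference between lists was tested.

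The count of bound V-ATPase genes moved with the definition, and so did that of all genes. With summits within 100 bp, 8 of the 33 were bound (21.6% of all genes), which was nearer the share of all genes than with 250 bp. With 500 bp 17 were bound (37.1%) and with 1000 bp 18 (40.9%). Vha16-5 was gained at 500 bp and Vha14-1, ubiquitous, at 1000 bp. With the 5′-most TSS alone the number stayed at 16 (30.1%), and with summits anywhere in the gene body or within 250 bp of it 19 were bound (39.5%). Among the 3422 strongest peaks 10 were bound (19.5%), and among the 1711 strongest 5 (10.3%), all of them ubiquitous or only genes: Vha55, Vha36-1, Vha26, Vha16-1 and Vha68-2. The strongest 6844 regions of replicate 3 alone gave 16 (33.1%), with Vha14-1 gained and Vha100-2 lost. Those of replicate 1 alone gave 14 (31.2%), with Vha100-1 and VhaM9.7-b lost. Thresholded peaks with a summit within 100 bp among the strongest 6844 regions of both replicates, a stricter demand than a region anywhere in the lists of 30000, gave 12 (25.2%), without Vha100-1, Vha100-2, VhaPPA1-1 and VhaM9.7-b.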

How the data were processed

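The data were peak lists from HmgZ ChIP-seq of 2 replicates. Per the deposited files' descriptions, the authors called regions on dm6 separately for each replicate and for both combined, and derived the IDR-thresholded set from them. Which aligner and caller were used is not given in the sources used here. Regions carry the authors' signal value, on a scale particular to each list. The deposited −log10 q-value reaches a ceiling and was left out. Depth is unknown.

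Summits were the deposited peak offsets. TSSs came from Ensembl 115 and sequences from the RefSeq copy of the assembly. For a thresholded peak, the strongest region of a replicate with its summit within 100 bp was used. For an unbound gene, it was the strongest region within 250 bp of a TSS. The signal was divided by the list median. Motifs were matched as letters on both strands. The calling of bound genes was run on summits planted within 250 bp of TSSs. This checks the code alone and says nothing on the count of bound genes.

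The members, the lists and the alternatives were chosen with earlier results of these data known. All Vha genes were described. Of the related lists, the 3 bound genes of highest mean percentile and every gene of a list of 6 or fewer were named. With 1 group, no test was run, and p-values are not given. Alternatives were other windows, TSS choices, peak sets and single replicates. Software was Python 3.11.15 with numpy 2.4.6, pandas 2.3.3 and matplotlib 3.10.9.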

Additional observations from a re-analysis of the deposited data

How the results depend on the processing

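The number of bound V-ATPase genes moved from 16 to 8 with summits within 100 bp, to 10 in the strongest 3422 peaks and to 5 in the strongest 1711. Ubiquitous or only genes went from 12 to 6 within 100 bp and to 5 in the strongest 1711. Restricted paralogs went from 3 to 5 with gene bodies, to 1 in the strongest 3422, to 0 in the strongest 1711, to 7 with all pooled regions and to 1 without VhaM9.7-a and VhaM9.7-c. The subunits with the ubiquitous gene alone bound went from 4 to 2 within 100 bp and to 2 in the strongest 3422. The stricter sets hold fewer peaks and the pooled set more by construction, and the part of peak number in these changes was not tested.

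The median percentile of the family's promoter peaks went from 53.7 to 67.8 with summits within 500 bp, where Vha100-2 counts by its peak of rank 413 and VhaM9.7-b by 1 of rank 2540, and Vha16-5 is added. With each replicate alone the bound genes numbered 14 to 16, the ubiquitous or only genes 11 to 12, the restricted paralogs 2 to 3, the subunits 5 either way and the median percentile 47.5 to 64.0. The other alternatives kept these counts within 1.5 times. With the 5′-most TSS alone TCACGTGA was at 1 promoter and CACGTG at 3, and within 100 bp of the TSS the DRE was at 1 and the M1BP core at 2. No paired analysis was possible because there is 1 group. Unknown depth, 2 replicates and assigned classes limit these descriptions, and a gene without a peak may lie below detection.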

Other observations

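Inside V-ATPase genes and away from their starts, Vha26 held peaks in an intron (rank 4718, with 2.55 times the list median in replicate 1 and 2.14 in replicate 3) and in its 3′ UTR (rank 4597, with 2.93 and 2.14). Vha16-1 held 2 intronic peaks. The stronger, at rank 2296, lay 3941 bp after the nearest Vha16-1 TSS and had 4.45 and 2.73, higher in replicate 1, whereas the promoter peak of that gene was higher in replicate 3. The weaker, at rank 5039, had 2.62 and 2.35.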
